A study of Bos taurus with 8 samples.

Results

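The receptors through which neutrophils sense chemoattractants and growth factors were examined in bovine blood granulocytes: CXCR1, CXCR2, FPR1, FPR2, C5AR1, CSF3R, CSF2RB and TREM1. The genes were listed by name, and a probe was taken as theirs where its accession, gene identifier, gene name or description resolved to that symbol. Of the 8 genes, 3 had such a probe among 6724 genes named on the array: CXCR1, C5AR1 and TREM1, with 1 probe each. CXCR1 and TREM1 were bright enough to be tested, C5AR1 was not, and CXCR2, FPR1, FPR2, CSF3R and CSF2RB were not analysed here. No symbol was found for 8148 of the 15208 probes, so a probe for these 5 genes may be among them.

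The samples were granulocytes from the peripheral blood of 4 cows (Bos taurus). Each cow was sampled on day 7 of the oestrous cycle, not pregnant and before an embryo was transferred, and again on day 21, pregnant by embryo transfer. No other treatment is labelled, and breed, age and how the granulocytes were isolated are not given in the sources used here. Each RNA sample, labelled with Cy3, was read on an Agilent array of its own, giving 4 arrays per group. Day 7 came first in every cow, so day, transfer and pregnancy cannot be told apart.

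Chemoattractant receptors such as CXCR1, CXCR2, FPR1, FPR2 and C5AR1 pass through the membrane as a bundle of helices, couple to inhibitory G proteins and steer neutrophils toward chemokines, bacterial formyl peptides or the complement fragment C5a. CSF3R binds granulocyte colony-stimulating factor, and CSF2RB is the signalling chain shared by the receptors for GM-CSF, interleukin 3 and interleukin 5; both work through JAK kinases and STAT factors and govern neutrophil production and survival. TREM1 is an immunoglobulin-like receptor that signals through the adaptor TYROBP and amplifies inflammatory responses of neutrophils and monocytes. Neutrophils make up most blood granulocytes, and CXCR1 and CXCR2 are their main receptors for CXCL8 and related chemokines.

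Each result below rests on a single 60-base probe, and these 3 probes are shown because they fix what was measured. Capitals mark the longest run of bases that each shares, on either strand, with another probe of the array. That run was 14 bases in each case.
CXCR1: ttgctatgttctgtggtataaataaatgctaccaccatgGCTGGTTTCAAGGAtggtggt
TREM1: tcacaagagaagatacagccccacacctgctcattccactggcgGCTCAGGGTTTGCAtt
C5AR1: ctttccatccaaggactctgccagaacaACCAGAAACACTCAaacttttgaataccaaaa
The G and C content was 41.7% in the CXCR1 probe, 53.3% in the TREM1 probe and 40% in the C5AR1 probe. The CXCR1 probe carried the older name IL8RB and the description interleukin 8 receptor, beta, in the array design. Its accession resolves to CXCR1 in the RefSeq table, where IL8RB is a synonym of both CXCR1 and CXCR2 and the CXCR1 entry also lists CXCR2 as a synonym. These paralogues lie on the same bovine chromosome with 1 annotated gene, a long non-coding RNA, between them. No probe was found under the name CXCR2, and whether this probe also binds CXCR2 transcripts was not tested, so its signal is given as CXCR1 with that limit.

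CXCR1 was higher on day 21 in 3 cows, by 2.69-, 2.68- and 2.89-fold, and 346-fold lower in the other cow. On day 7 its processed signal, the scanner's background-subtracted intensity, was 3228, 6481, 14213 and 7042 units in cows 1 to 4. On day 21 it was 19, 8095, 31094 and 17702 units. All 4 day 7 samples were bright, as were cows 2, 3 and 4 on day 21, whereas cow 1 on day 21 was close to background. Array brightness differed, so values were compared as normalised log2 signal, in which the 75th percentile of each array is set to 0. On that scale CXCR1 stood at 2.30, 2.59, 2.89 and 2.76 on day 7 and at -6.14, 4.02, 4.31 and 4.29 on day 21. The 4 day 7 values lay close together (2.63 ± 0.26, SD, n = 4). The day 21 values of cows 2, 3 and 4 were above all of them, and that of cow 1 was far below. The day 21 mean was therefore 1.62 ± 5.18 (SD, n = 4).

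**Figure D1:**
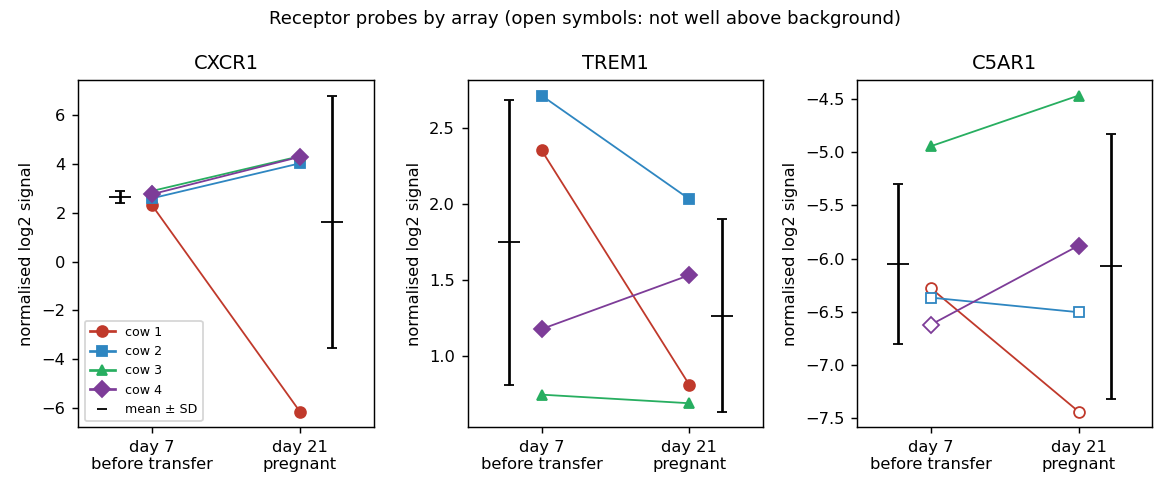
Normalised log2 signal (y axis) of CXCR1, TREM1 and C5AR1 on the day 7 and day 21 arrays (x axis), with 1 symbol and line per cow and, beside them, the group mean with SD as a bar (n = 4). CXCR1 goes from between 2.59 and 2.89 to between 4.02 and 4.31 in cows 2, 3 and 4 and from 2.30 to -6.14 in cow 1; 5 of the 8 C5AR1 symbols are open, marking arrays where it was not well above background.

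The difference between the days was smaller than the spread for CXCR1. Its log2 change, day 21 minus day 7, was -1.01 with a standard error of 1.98 and a 95% interval from -5.41 to 3.38 (adjusted p = 0.898 by limma over all 10459 tested probes). In that comparison 0 probes (0%) passed an adjusted p of 0.05, and 983 (9.40%) had an unadjusted p under 0.05. With cow as a block the CXCR1 change was again -1.01, with a standard error of 1.71 (adjusted p = 0.77 by limma).

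The day 21 array of cow 1 set both the direction and the size of the CXCR1 change. Without it the change was 1.57 ± 0.34 (SE), with an adjusted p of 0.076 by limma, where 12 probes (0.115%) were called higher. Without both arrays of cow 1 it was 1.46 ± 0.29 (SE), with an adjusted p of 0.0788 by limma and 15 probes (0.143%) called higher. With cow as a block in the remaining 3 cows, a setting chosen after the values were seen, it was 1.46 ± 0.19 (SE), with an adjusted p of 0.058 by limma and 0 probes (0%) called higher. CXCR1 missed the threshold of 0.05 in each of these fits. With the slide as a fixed block the change was -2.55, in a fit to which the day 21 array of cow 2 adds nothing.

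The log2 difference within a cow was -8.44, 1.43, 1.42 and 1.53 in cows 1 to 4. Across the 10307 tested probes with a value on every array, the difference in cow 1 had a median of -0.13 and an SD of 1.01, and CXCR1 had the lowest value of all. The next lowest was TFB1M, a mitochondrial ribosomal RNA methyltransferase, at -6.96. The difference exceeded 1 in each of cows 2, 3 and 4 for 364 of these probes (3.53%), CXCR1 among them. Of the same probes 1614 (15.7%) were higher on day 21 in 4 of 4 cows. Such agreement alone therefore says little about a gene. The share lower in 4 of 4 cows was not counted. The share of probes with a difference as high as that of CXCR1 or higher was 15% in cow 2, 2.61% in cow 3 and 3.61% in cow 4. Cow 2, whose 2 arrays lay on separate slides, had the widest spread of differences, with an SD of 1.40 against 0.74 in cow 3 and 0.86 in cow 4.

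**Figure D2:**
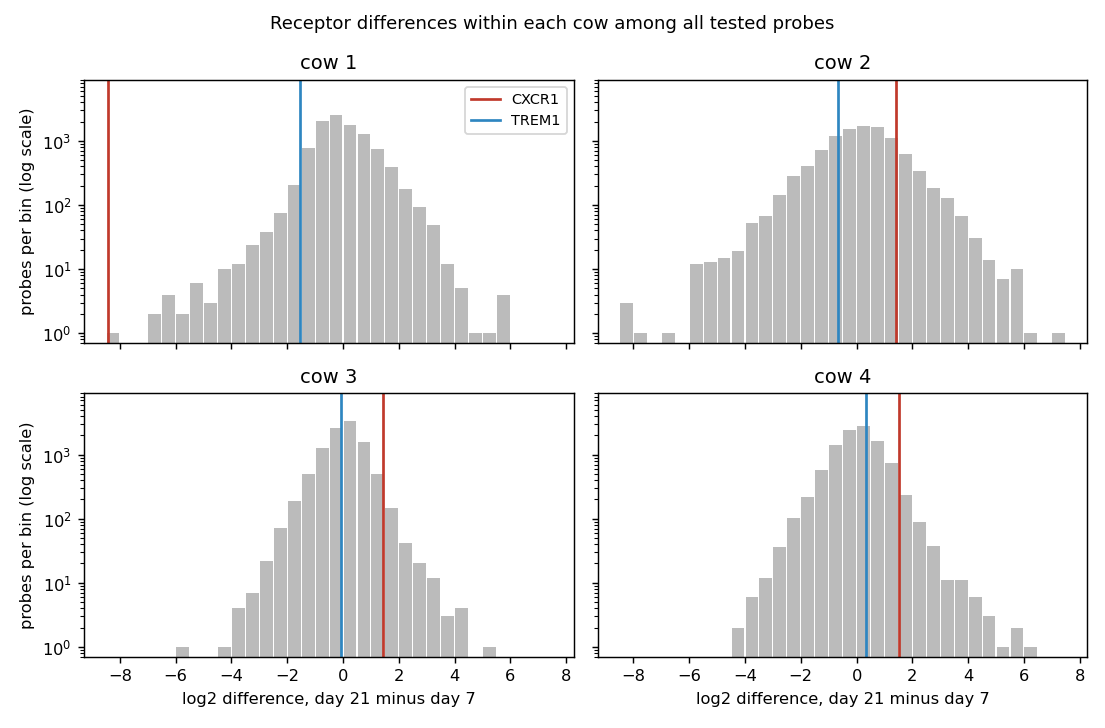
Number of tested probes (y axis, log scale) by log2 difference, day 21 minus day 7 (x axis, bins of 0.5), in each of the 4 cows, with vertical lines at CXCR1 (red) and TREM1 (blue). CXCR1 lies at the lowest end in cow 1, at -8.44, and in the upper part in cows 2, 3 and 4, while TREM1 moves from -1.54 in cow 1 to 0.35 in cow 4.

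The low spot of cow 1 on day 21 carried no mark of a failed measurement in the scanner output. It covered 66 pixels, of which 0 were rejected, with a mean of 91.7 and a median of 91.5 units before background subtraction and a local background of 38. The scanner software marked it as well above background and not as an outlier, and CXCR1 was well above background on all 8 arrays. The 22 tested probes within 2 rows and 2 columns of it had differences in cow 1 between -4.36 and 0.12, with a median of -0.54. These neighbours lay lower than the tested probes at large, whose differences in cow 1 had a median of -0.13 and a 95th percentile of 1.73. Whether this part of the array read low was not tested. Normexp background correction, which models the background and adds an offset of 50 to each spot, gave a difference of -6.17 in cow 1, 71.9-fold lower, and 1.34, 1.41 and 1.53 in cows 2, 3 and 4. Quantile normalisation gave -8.20 in cow 1 and 1.31, 1.11 and 1.25 in the others. The direction in each cow was therefore the same under these scalings, while the size in cow 1 depended on how background was treated. Within slide 1, which held both arrays of cow 1 and the day 7 array of cow 2, the difference was -8.58. It was 1.42 on slide 3 (cow 3) and 1.53 on slide 4 (cow 4), and slide 2 held only the day 21 array of cow 2.

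Of 11 tested neutrophil marker genes, 10 were well above background on every measured array, and ALPL was on 3 of 4 in each group. Other neutrophil transcripts were also lower in cow 1 on day 21. Of the 11 markers 10 were lower in cow 1, with a median difference of -0.62, and 8 of the 10 measured in cow 2 were lower, with a median of -0.72. The medians were 0.02 in cow 3 and 0.01 in cow 4, with 5 of 11 markers lower in each. Over all 4988 tested genes the medians were -0.08, 0.18, 0.07 and 0.08 in cows 1 to 4. Most genes were thus lower in cow 1 and higher in each other cow. In cow 1 the gelatinase MMP9 differed by -3.72, the oxidase subunit NCF1 by -2.76 and lactoferrin (LTF) by -2.01. Another LTF probe is not given per cow. Over all cows its log2 change was 0.00, against 0.08 for the probe used. In cow 1 these 3 genes were the furthest below 0 of the markers. S100A8, among the most abundant neutrophil transcripts, differed by -0.41 there. The level summed over the 11 markers, relative to the 75th percentile of the array, was 205 to 273 on day 7 and 69.7 to 250 on day 21. In cow 1 it was 225 on day 7 and 134 on day 21. The lowest sum, in cow 2 on day 21, lacks S100A12, whose spot was left out there as an outlier.

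**Figure D3:**
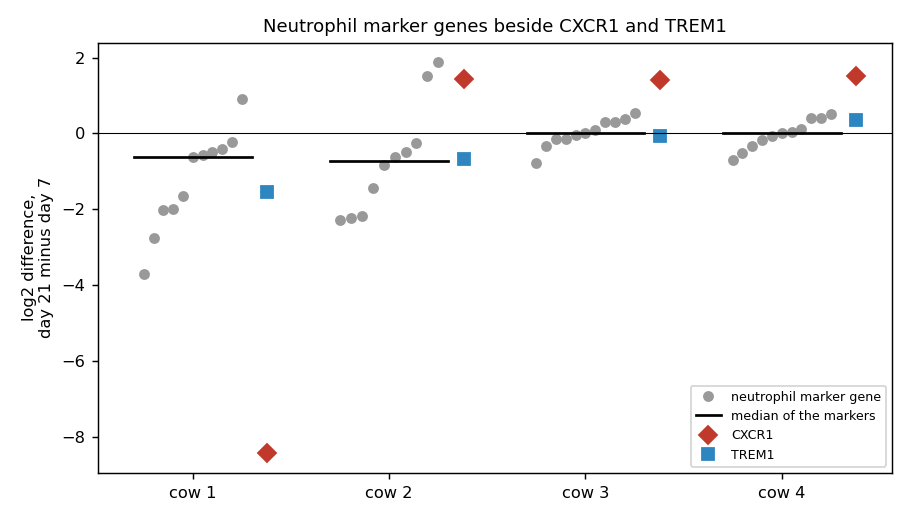
Log2 difference, day 21 minus day 7 (y axis), in each cow (x axis) for the tested neutrophil marker genes (grey points; line, their median), CXCR1 (red diamonds) and TREM1 (blue squares). In cow 1 the markers have a median of -0.62 and CXCR1 lies at -8.44; in cows 3 and 4 the markers centre near 0 and CXCR1 lies at 1.42 and 1.53.

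In a bulk sample, fewer cells of a type and less RNA per cell cannot be told apart. Over all 4 cows, 0 of the 11 neutrophil markers passed an adjusted p of 0.05 by limma, 1 had an unadjusted p under 0.05, and their median log2 change was -0.32. Among all tested genes 449 of 4988 had an unadjusted p under 0.05 by limma. Markers of other cells were present too. The summed level of 7 monocyte and macrophage markers was 6.59 to 9.61 on day 7 and 10.9 to 17.8 on day 21; of these C1QA was well above background on 1 of 4 day 7 arrays. Of these markers 6 were higher on day 21, with a median log2 change of 0.75. C1QA, at 0.63, is among the 6. It was well above background on 3 of 4 day 21 arrays, so it entered the test mainly through day 21, where it was higher. It had 2 surrogate values over the 8 arrays. By limma 0 of the 7 markers passed the adjusted threshold, and 2, CD14 and VCAN, had an unadjusted p under 0.05. VCAN was at 0.86, and another probe of that gene gave -0.06. CD14, the monocyte lipopolysaccharide co-receptor, differed by 0.04, 1.37, 2.29 and 2.70 in cows 1 to 4. The eosinophil list had 2 tested genes, CCR3 at -0.63 ± 0.91 (SE) and ALOX15 at -1.02 ± 0.76 (SE). The T cell markers were 5 of 8 lower (median -0.48). The B and plasma cell markers were 3 of 4 higher (median 0.37), and the NK and cytotoxic cell markers were 6 of 7 higher (median 0.30). The erythroid list had 2 of 3 tested markers higher (median 0.23). The basophil and mast cell list had HDC at 1.07 ± 0.47 (SE) and IL4 at -0.29 ± 0.55 (SE), both dim. HDC was well above background on 1 of 4 day 7 arrays and 3 of 4 day 21 arrays, with 1 surrogate value. It thus entered the test mainly through day 21, where it was higher. IL4 was well above background on 2 of 4 day 7 arrays and 3 of 4 day 21 arrays. Of the platelet markers, ITGA2B was at 0.10 ± 0.52 (SE) and P2RY12 at -2.45 ± 0.45 (SE), lower in 4 of 4 cows (adjusted p = 0.279 by limma). EPX and PRG2, the defining eosinophil granule genes, were not analysed here. The part of these cells in the CXCR1 and TREM1 results was not tested.

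TREM1 was lower on day 21 in 3 of 4 cows, by a difference that did not exceed the spread. Its processed signal was 3357, 7038, 3218 and 2355 units in cows 1 to 4 on day 7, and 2353, 2038, 2529 and 2621 units on day 21. The normalised log2 signal was 2.35, 2.71, 0.75 and 1.18 on day 7 and 0.81, 2.03, 0.69 and 1.53 on day 21. Cows 1 and 2 were high on day 7, cows 3 and 4 were not, and the groups overlapped. The means were 1.75 ± 0.93 (SD, n = 4) on day 7 and 1.27 ± 0.63 (SD, n = 4) on day 21. The log2 change was -0.48 with a standard error of 0.52 and a 95% interval from -1.63 to 0.67 (adjusted p = 0.805 by limma). Within cows the difference was -1.54, -0.68, -0.06 and 0.35. In cow 1, 3.4% of tested probes had a difference as low as TREM1 or lower; in cow 2 this share was 24%.

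The TREM1 change was negative in each of the 24 other settings tried, between -0.81 (day 7 array of cow 3 left out) and -0.10 (array quality weights); it was -0.16 with the day 7 array of cow 2 left out. Within slides it was -1.72 on slide 1, -0.06 on slide 3 and 0.35 on slide 4. A further tested probe was described in the array design as an expressed sequence tag similar to TREM1. It had no symbol under the naming rule, and it is given here after its values were seen. Its normalised log2 signal was -2.94, -3.24, -3.83 and -3.71 on day 7 and -2.09, -2.49, -3.21 and -3.25 on day 21. It was higher on day 21 in 4 of 4 cows, as were 15.7% of tested probes, with a log2 change of 0.67 ± 0.40 (SE; adjusted p = 0.64 by limma). Its direction thus differed from that of the TREM1 probe.

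**Figure D4:**
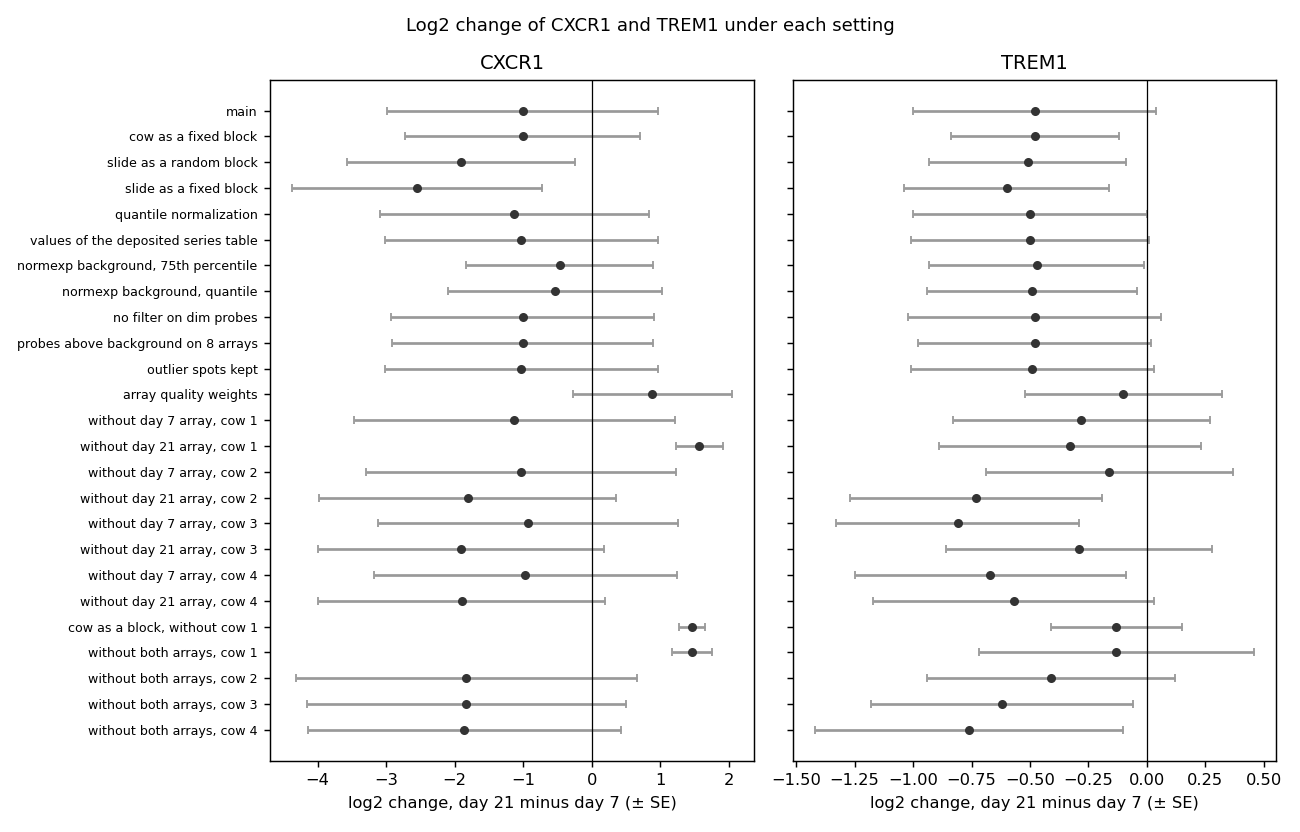
Log2 change of CXCR1 and TREM1, day 21 minus day 7 (x axis), with its standard error as a bar, under the main setting (top) and each of the 24 other settings (y axis). CXCR1 lies above 0 only with array quality weights (0.88) or with the day 21 array or both arrays of cow 1 left out (1.46 to 1.57); TREM1 lies below 0 in each.

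C5AR1, the receptor for complement fragment C5a, was at or near background and has no test. Its processed signal was 8.46, 13, 62.3 and 10.6 units in cows 1 to 4 on day 7, and 7.7, 5.49, 70.8 and 15.4 units on day 21. It was well above background on 1 of 4 day 7 arrays (cow 3) and on 2 of 4 day 21 arrays (cows 3 and 4). The day 7 value of cow 4 is a surrogate that the scanner software writes for a spot not distinguishable from background. Cow 3 alone was measured on both days, with normalised log2 values of -4.94 and -4.46, a difference of 0.48 that has no replicate. A low signal from 1 probe does not show that the transcript was absent.

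By Pearson correlation of normalised log2 values over the 8 arrays, among 3930 genes well above background on every array, the genes most like CXCR1 were KNSTRN (0.98), TANK (0.96) and FES (0.96). Each was low in cow 1 on day 21, with within-cow differences of -2.67, -1.52 and -1.47 there and between 0.07 and 0.62 in the other cows. Without that array the correlations were 0.64, 0.74 and 0.40, so the likeness rests largely on 1 array. The genes most like TREM1 were SEC22B (0.99), GNG2 (0.98) and PIGR (0.96), and these values were 0.99, 0.98 and 0.96 without that array. GNG2 encodes a G protein gamma subunit, SEC22B a vesicle fusion protein and PIGR the receptor that carries polymeric immunoglobulins across epithelia. GNG2 differed by -0.81, -0.31, -0.16 and 0.10 in cows 1 to 4. Its log2 change was -0.30, and another probe of the gene gave -0.76. These correlations describe arrays that share cows and slides and were picked as the highest of many.

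Ligands of these receptors were mostly higher on day 21, although none passed the test. Of 16 listed ligand genes 12 had a probe and 8 were tested; 7 had a positive and 1 a negative log2 change, with a median of 1.02. That median was 0.56 without the day 7 array of cow 1, 0.65 without the day 21 array of cow 2, 1.58 without the day 21 array of cow 1 and 0.39 with the slide as a fixed block. Within cows 1 to 4 the median difference of the ligands was 0.56, 2.61, 0.14 and 0.54. Over all 4988 tested genes 2823 were positive and 2165 negative, with a median of 0.09. The ligand list had 0 genes at an adjusted p under 0.05 by limma and 3 at an unadjusted p under 0.05, against 449 of 4988 genes. CXCL5, a neutrophil-attracting chemokine that acts through CXCR2, had a normalised log2 signal of -1.45 ± 0.94 (SD, n = 4) on day 7 and 1.60 ± 2.29 (SD, n = 4) on day 21. Its log2 change was 3.05 ± 0.98 (SE; adjusted p = 0.439 by limma), and it was higher in 4 of 4 cows, by 0.93, 4.46, 3.12 and 3.70. Cow 1 showed the smallest CXCL5 difference. Without the day 21 array of cow 1 the change was 4.12 and passed the threshold (adjusted p = 0.0352 by limma). Without both arrays of cow 1 it was 3.76 and did not pass, with no block (adjusted p = 0.0579 by limma) or with cow as a block (adjusted p = 0.058 by limma).

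CXCL2, a related chemokine, was also higher in 4 of 4 cows, with a log2 change of 1.67 ± 0.65 (SE; adjusted p = 0.502 by limma), or 1.04 with the slide as a fixed block. CXCL3 and GRO1, close paralogues of CXCL2 whose probes may share transcripts with it, stood at 1.25 ± 0.90 (SE) and 0.64 ± 0.68 (SE). CXCL3 differed by 2.16, 2.68, 0.03 and 0.14 in cows 1 to 4. GRO1 differed by -0.19, 2.55, 0.06 and 0.16, so its change came mainly from cow 2. CXCL8, the shared ligand of CXCR1 and CXCR2, differed by -0.80, 1.46, 1.57 and 0.91 in cows 1 to 4. It was thus lower in cow 1 and higher in the others, as were 17.7% of tested probes. CSF2, the gene for GM-CSF, a ligand of the receptors that use CSF2RB, had a change of 2.20 ± 1.27 (SE), with 3 of 4 cows higher, and was 1.24 or 1.30 under normexp. It was well above background on 2 of 4 day 7 arrays and 3 of 4 day 21 arrays. PGLYRP1, a neutrophil granule peptidoglycan-binding protein reported as a TREM1 ligand, was lower in 4 of 4 cows, by -1.66, -1.15, -1.45 and -1.50. Its log2 change was -1.44 ± 0.35 (SE; adjusted p = 0.342 by limma). It was dim, well above background on 3 of 4 day 21 arrays, and normexp background correction gave -0.52 or -0.59.

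**Figure D5:**
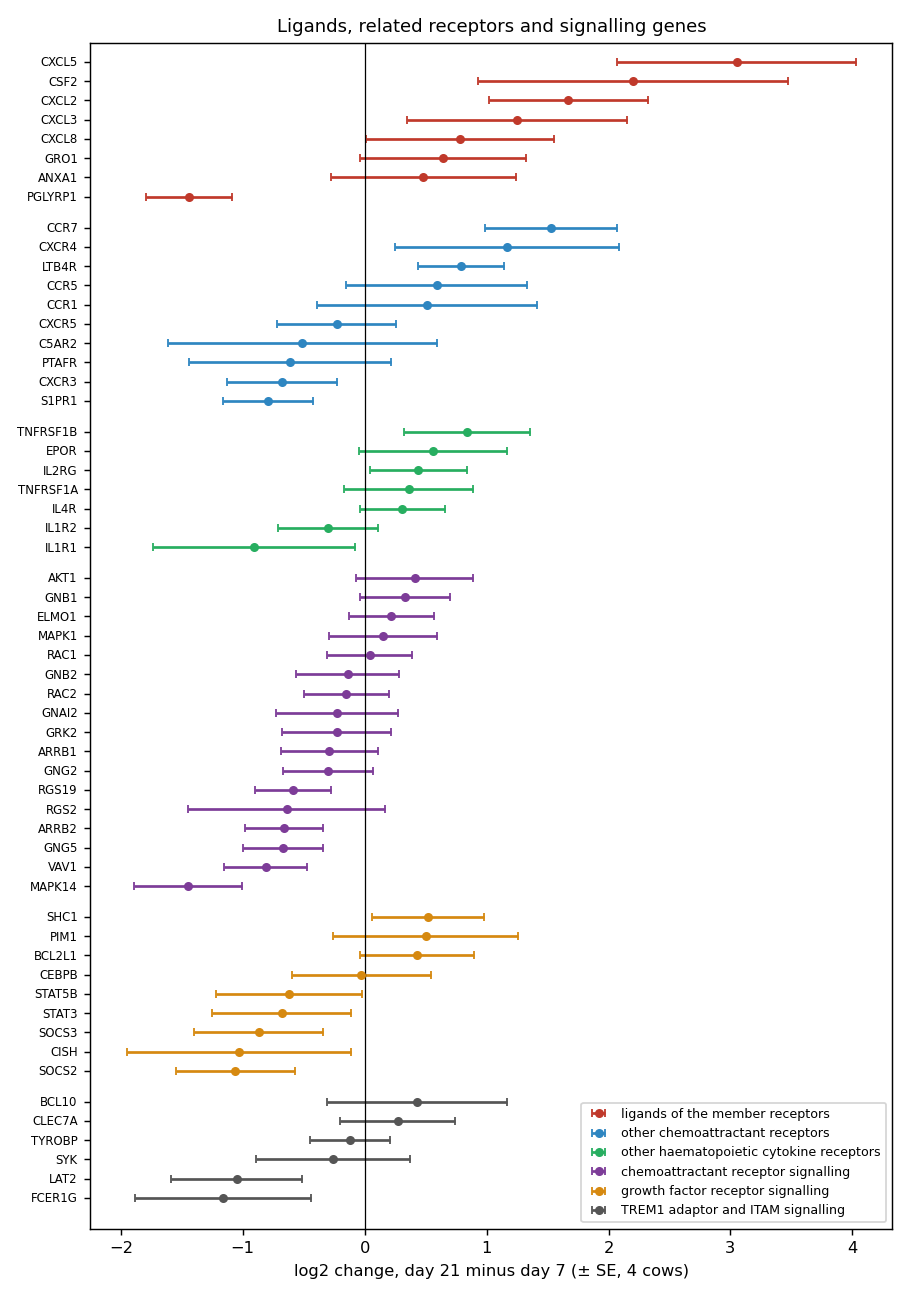
Log2 change, day 21 minus day 7 (x axis), with its standard error as a bar (4 arrays per group), for each tested gene (y axis) of the 6 lists, coloured by list. Of the 8 ligand genes 7 lie above 0, led by CXCL5 at 3.05, while 12 of the 17 chemoattractant signalling genes lie below 0.

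Other chemoattractant receptors showed no shared direction. Of 10 tested genes among 23 listed, 5 were positive and 5 negative, with a median of 0.14. By limma 0 passed the adjusted threshold, and 2 had an unadjusted p under 0.05, against 449 of 4988 genes. CCR7, which guides leukocytes to lymph nodes, had a log2 change of 1.53 ± 0.54 (SE; adjusted p = 0.489 by limma) and was higher in 4 of 4 cows. LTB4R, which binds leukotriene B4, was at 0.79 ± 0.35 (SE), also higher in 4 of 4 cows, and at 0.45 or 0.43 under normexp. S1PR1, a sphingosine 1-phosphate receptor for leukocyte egress, was at -0.79 ± 0.37 (SE), lower in 4 of 4 cows. CXCR3, a chemokine receptor of activated T cells, was at -0.68 ± 0.45 (SE), and at -0.09 or -0.12 under normexp. C5AR2, the second receptor for C5a, differed by -3.38 in cow 1 and by 0.53, 0.48 and 0.32 in the others, the same signs as CXCR1. So did CXCR4, at -0.41 in cow 1 and 2.61, 1.08 and 1.39 in the others, and CCR1, at -1.63 and 1.25, 1.34 and 1.08. These 3 of the 10 receptors were singled out after their values were seen, and 17.7% of tested probes were likewise lower in cow 1 and higher in the other cows.

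Cytokine receptors outside the 8 genes were likewise mixed. Of 7 tested genes among 21 listed, 5 were positive and 2 negative, with a median of 0.36; 0 passed the adjusted threshold by limma, and 0 had an unadjusted p under 0.05. TNFRSF1B, a tumour necrosis factor receptor, was at 0.84 ± 0.52 (SE) and was lower only in cow 1, at -0.50; it was 0.40 without the day 7 array of cow 3. IL2RG, the common gamma chain, was at 0.44 ± 0.40 (SE) and at 0.19 with the slide as a fixed block, and EPOR, the erythropoietin receptor, at 0.56 ± 0.61 (SE), of which cow 2 alone gave 2.42. IL1R1, an interleukin 1 receptor, was at -0.91 ± 0.83 (SE) with no block and lower in 4 of 4 cows, with differences from -1.09 to -0.82. With cow as a block its standard error was 0.23, and it did not pass the threshold (adjusted p = 0.165 by limma). Cow 1 was low on both days, so the unpaired change was -0.21 without its day 21 array and -1.66 without its day 7 array.

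Signalling genes downstream of chemoattractant receptors leaned lower. Of 17 tested genes among 33 listed, 5 were positive and 12 negative, with a median of -0.23. By limma 0 passed the adjusted threshold, and 2 had an unadjusted p under 0.05, against 449 of 4988 genes. In cow 1, 16 of the 17 were lower, with a median of -0.67. Over all 4988 tested genes the median in cow 1 was also below 0, at -0.08, so most genes were lower there. MAPK14, the p38 stress kinase, was at -1.45 ± 0.44 (SE; adjusted p = 0.419 by limma) and lower in 4 of 4 cows; another probe of the gene gave -0.91. VAV1, a guanine nucleotide exchange factor for Rac, was at -0.81 ± 0.34 (SE). ARRB2, an arrestin that desensitises these receptors, was at -0.66 ± 0.32 (SE). Both were lower in 4 of 4 cows. The share of all probes lower in 4 of 4 cows was not counted, and 15.7% were higher in 4 of 4 cows. GNG5, a G protein gamma subunit, was at -0.67 ± 0.33 (SE), with cow 2 at 0.06. RAC2, the Rac GTPase of blood cells, was at -0.15 ± 0.35 (SE).

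Signalling genes of the growth factor receptors had 3 positive and 6 negative changes among 9 tested of 24 listed, with a median of -0.62; 0 passed the adjusted threshold by limma, and 0 had an unadjusted p under 0.05. SOCS2, a feedback inhibitor of cytokine signalling, was at -1.06 ± 0.49 (SE) and lower in 4 of 4 cows. SOCS3, the feedback inhibitor of CSF3R, was at -0.87 ± 0.53 (SE) and STAT3, which acts below CSF3R, at -0.68 ± 0.57 (SE). Without the day 7 array of cow 2 these were -0.42 and -0.22, and SOCS3 was -0.46 or -0.43 under normexp. SHC1, an adaptor protein, was at 0.52 ± 0.46 (SE), and between 0.18 and 0.80 over the alternatives. For the TREM1 pathway, 6 of 15 listed genes were tested, with 2 positive and 4 negative and a median of -0.19; 0 passed the adjusted threshold by limma, and 0 had an unadjusted p under 0.05. TYROBP, the adaptor through which TREM1 signals, was at -0.12 ± 0.33 (SE). FCER1G, another adaptor with the same kind of motif, was at -1.16 ± 0.72 (SE), of which cow 2 alone gave -4.23. LAT2, a membrane adaptor, was at -1.05 ± 0.54 (SE) and lower in 4 of 4 cows, with cow 2 at -2.42; leaving out that cow's day 21 array gave -0.48. BCL10, which links such receptors to NF-kappaB, was at 0.43 ± 0.74 (SE), and CLEC7A, a receptor for fungal glucans, at 0.27 ± 0.47 (SE).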

How the data were processed

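Intensity values per spot were deposited as written by Agilent Feature Extraction 9.5 (version per the submitters' processing notes). The processed signal is background-subtracted and spatially detrended by the authors' scanner software, with a surrogate for spots not distinguishable from background, per the file headers. The deposited series table holds log2 values that differ from log2 processed signal by a constant for each array (to within 0.00485); it was an alternative. Over the arrays the median processed signal was 49.1 to 186.9 units, 56.8% to 74.9% of probes were well above background, and no spot was saturated. The number of arrays limits the precision.

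Normalised values were log2 processed signal minus the array's 75th percentile, without control spots and spots marked as outliers (0 to 12 per array, 129 on the day 21 array of cow 2). A probe was tested where at least 4 of the 8 arrays had it well above background. Groups were compared with limma 3.58.1 in R 4.3.3 with no block, with Benjamini-Hochberg adjustment over 10459 probes; the script was checked on simulated data. Probes were named through a RefSeq table of assembly ARS-UCD2.0: 2496 probes by accession, 1984 by identifier, 1562 by name and 1018 through the description. Its coordinates served only to place CXCR1 and CXCR2 on their chromosome. They are not used for the probes, since no label or header names the build behind the probes. A gene with several probes was represented by that of highest mean.

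The receptors and gene lists were chosen with earlier results of these data known. By rule the text names the 8 receptors, the 4 tested genes of smallest p in each of 6 pathway lists, and the 3 genes most correlated with each tested receptor; other genes are examples chosen after their values were seen. The source names give the same cow for each replicate number. The pairing was checked by deviations from group means. Arrays of the same cow correlated at 0.172 to 0.752 and those of different cows at -0.474 to 0.302. Cows 1, 3 and 4 each had both arrays on 1 slide, so cow and slide cannot be told apart in them. Cow 2, with its arrays on separate slides, gave the 0.172. Its day 7 array correlated at 0.302 with the day 21 array of cow 1, on the same slide. The check therefore does not decide the pairing of cow 2. The replicate block (cow) left CXCR1 at -1.01 and TREM1 at -0.48. Alternatives were blocks for cow or slide, quantile and normexp processing, the deposited table, other filters, array weights, and leaving out arrays or cows.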

Additional observations from a re-analysis of the deposited data

Results flagged for a closer look

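In 54 groups of 4 arrays (each receptor or named pathway gene on each day), a single array was looked for whose gap to the others took up most of the group's range (Dixon's ratio at the 95% level). For independent groups of normal values chance gives about 1 such group in 20, and 8 were found. These groups share the same arrays, and the pathway genes were picked by smallest p. The 8 can therefore not be set against that rate. CXCR1 in cow 1 on day 21 stood at -6.14, against 4.02 to 4.31 in the other cows. Cow 1 was also apart for IL1R1, at -2.57 on day 7 (others 0.26 to 0.48) and -3.38 on day 21 (others -0.66 to -0.39), and for VAV1, highest on day 7 at 4.52 (others 4.02 to 4.09). Cow 2 was apart for CLEC7A, lowest on day 21 at -3.92; for S1PR1, highest on day 21 at -2.29; and for SOCS3, highest on day 7 at -2.05. CSF2 was lowest in cow 3 on day 7, at -7.52, where 2 of the 4 day 7 arrays were not well above background.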

How the results depend on the processing

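With 4 arrays per group and 1 probe per receptor, a change that missed the threshold is not shown to be absent, even where it was several standard errors wide, and C5AR1 was too close to background to test. The median of the other chemoattractant receptors was -0.25 without the day 21 array of cow 2 or the day 7 array of cow 3, 0.49 without the day 21 array of cow 1, -0.15 with the slide as a fixed block and 0.65 over the 6 genes well above background on all arrays. That of the cytokine receptors was 0.15 without the day 21 array of cow 2, 0.63 without the day 21 array of cow 1 and -0.06 with the slide as a fixed block. The chemoattractant signalling median was -0.09 without cow 1 and -0.39 without the day 21 array of cow 2, the growth factor signalling median -0.22 without the day 7 array of cow 2, and the TREM1 pathway median -0.63 without the day 7 array of cow 1 and -0.03 without the day 7 array of cow 4. The count of called probes over the whole array was 0 in the main comparison, in the fit with cow as a replicate block and in most alternatives. It was 12 (2 higher, 10 lower) with the slide as a random block, 603 (282 higher, 321 lower) with array quality weights, which put the least weight on both arrays of cow 1, and between 0 and 41 when arrays or cows were left out: 41 without the day 21 array of cow 1 and 36 without cow 1. The cause was not tested. The replicate block moved no call: CXCR1 was at -1.01 and TREM1 at -0.48 in it. CXCR1 changed direction with array quality weights (0.88, adjusted p = 0.691 by limma) and with the replicate block without cow 1 (1.46), and ranged from -1.91 to 1.57 when arrays or cows were left out, positive only without the day 21 array or both arrays of cow 1. Its adjusted p by limma lay between 0.058 and 1 over the 24 alternatives, and that of TREM1 between 0.503 and 1. EPOR changed sign with the slide as a fixed block (-0.08), a fit to which the day 21 array of cow 2 adds nothing. It ranged from -0.06 (without cow 2) to 1.04 when arrays or cows were left out. BCL10 ranged from -0.31 (without the day 7 array of cow 1) to 0.92 and CLEC7A from -0.06 (without the day 7 array of cow 2) to 0.55. With array quality weights S1PR1, CXCL5, PGLYRP1 and MAPK14 passed the threshold (adjusted p = 0.0373, 0.026, 0.0329 and 0.0329 by limma). No other probe of CXCR1, TREM1 or C5AR1 was named, so the alternative that swaps probes was not run for them.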
